A study of Drosophila melanogaster with 2 samples.

Results

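The AstC-positive enteroendocrine cells of the adult Drosophila melanogaster midgut were taken as the cells that the authors' deposited cell table annotates as AstC+EE. There were 68 such cells among 4184 deposited cells, 36 of them from 1-day old and 32 from 3-day old flies. They were set beside the 54 cells annotated Tk+EE, the other enteroendocrine class of that table, and beside its intestinal stem cells (ISC, 1576 cells) and enteroblasts (EB, 1840 cells). Midgut epithelial cells of wild type Canton S females were dissociated and profiled by droplet single-cell RNA sequencing with the Chromium v3.1 chemistry, which counts captured transcripts by their unique molecular identifiers (UMIs). The study, titled after the return of enteroendocrine cells to a less differentiated state under the influence of nutrients, compared flies 1 and 3 days old. Each age was 1 library, so age and library cannot be told apart, and the authors made the classes from the same expression values that are described here. All contrasts are therefore descriptions of these 2 libraries, with no test.

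Enteroendocrine cells secrete hormones from the gut epithelium. In the fly midgut they arise from stem cells, carry the homeodomain protein Prospero (pros), and release peptide hormones into the gut wall and the circulation. Most belong to a class that makes Allatostatin C (AstC) or to a class that makes Tachykinin (Tk), and Notch signalling between a stem cell and its daughters helps to set whether a daughter becomes enteroendocrine.

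The libraries held 2711 cells with a median of 25935 UMIs at day 1 and 1473 cells with a median of 32121 at day 3. The deposited matrix holds depth-corrected values, from which UMI counts were rebuilt in the 2092 cells of up to 28085.5 UMIs, the median depth. This kept 61 of the 68 AstC+EE cells, 32 at day 1 and 29 at day 3, and 53 of the 54 Tk+EE cells. Of the stem cells, 652 of 951 at day 1 and 319 of 625 at day 3 were kept. Enteroblasts kept were 383 of 1248 and 88 of 592. Levels of these progenitor classes thus describe their shallower cells only. The kept AstC+EE cells had median depths of 9368 and 9601 UMIs, Tk+EE cells 7690 and 9042, stem cells 18099 and 19582, and enteroblasts 22394 and 22809. A level is the mean over cells of UMIs per 10000 UMIs of the cell, and pairs of levels are given as day 1 and day 3. One cell barcode occurred in both libraries, and 0 AstC+EE cells carried it.

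The class label was checked against pros, AstC, Orcokinin and CCHa1. The marker pros was nearly uniform: at least 1 pros UMI was found in 31 of 32 AstC+EE cells at day 1 and in 28 of 29 at day 3. After thinning every cell to 4000 UMIs, pros was detected in 83.3% and 96.2% of AstC+EE cells and in 0 of 28 and 0 of 27 enterocytes, which allows enterocyte shares of up to 10.7% and 11.1%. The 3 hormone markers were not uniform. AstC, which lies on chromosome arm 2L at 11076165 to 11081399 on the minus strand of BDGP6, had no UMI in 33 of the 61 cells, exactly 1 UMI in 2 cells, and 127 to 2140 UMIs in the remaining 26 (median 277.5). No cell lay between 1 and 127 AstC UMIs. The label AstC+EE thus covers pros-positive cells with and without the hormone it is named for.

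In Tk+EE cells the hormones were nearly uniform. Tk reached 50 UMIs in 51 of 53 cells, and Neuropeptide F (NPF) reached 50 in 52 of 53, with 318 to 6120 UMIs and a median of 1415.5. At least 1 AstC UMI was present in 31 of the 53 Tk+EE cells, but the highest held 25. Enterocytes, which do not make the hormone and had median depths of 11724 and 10461 UMIs, gave the background: at 4000 UMIs AstC was seen in 0 of 28 cells at day 1 and in 2 of 27 (7.41%) at day 3.

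The AstC+EE cells were then divided by whether any of 10 gut peptide genes reached 50 UMIs, a cut chosen after the values were seen. In 30 cells at least 1 peptide did, and these are called hormone-rich. They were 13 of 32 at day 1 (40.6%, exact Clopper-Pearson 95% interval 23.7 to 59.4) and 17 of 29 at day 3 (58.6%, 38.9 to 76.5). The other 31 cells, 19 and 12, are called hormone-poor. The top peptide of the hormone-rich cells was never below 127 UMIs. Among the hormone-poor cells 3 came near the cut, all of day 3, with 44, 32 and 29 CCHa1 UMIs, and the others held at most 11 UMIs of any of these peptides. All intervals cover counting error only, and those of the ages overlapped.

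**Figure D1:**
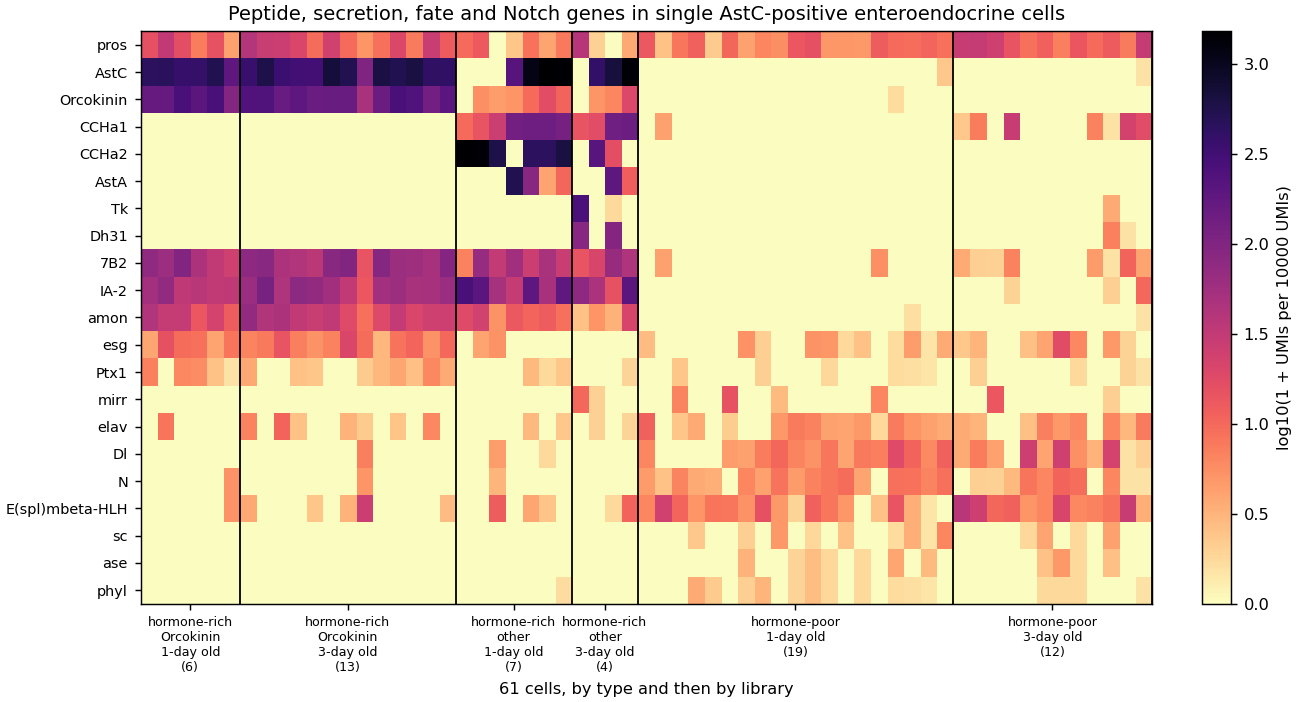
Peptide, secretion, fate and Notch genes (rows) in each of the 61 rebuilt AstC+EE cells (columns, by type and then by library); the colour is log10 of 1 plus UMIs per 10000 UMIs. The 30 hormone-rich cells carry the peptides and the secretion genes 7B2, IA-2 and amon, most of the 31 hormone-poor cells carry Dl, N and E(spl)mbeta-HLH, and pros is present across both.

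Among the hormone-rich cells, those with high Orcokinin shared a peptide combination, and the remainder were mixed in theirs. Orcokinin, a gut peptide gene, reached 50 UMIs in 19 cells (6 and 13), with 53 to 222 UMIs and a median of 117. Every one of these 19 cells also held 127 to 466 AstC UMIs (median 242). None of them held a single UMI of CCHa1, CCHa2, Allatostatin A (AstA) or Tk. NPF had 1 or 2 UMIs in 5 of them and ITP 1 UMI in 3.

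The other 11 hormone-rich cells (7 and 4) held at most 21 Orcokinin UMIs, and all 11 had CCHa1, a peptide hormone gene on chromosome arm 3R at 14092504 to 14096835. AstC reached 155 to 2140 UMIs (median 1160) in 7 of these 11 cells. Of the 7, 6 combined AstC with CCHa1 at 50 UMIs or more in the pair, 4 combined AstC with CCHa2 and 3 combined AstC with AstA. The remaining 4 held no high AstC: in 3 cells of day 1 the top peptide was CCHa2, with 522, 901 and 823 UMIs, and 1 cell had 173 Tk and 58 Dh31 UMIs together with 6 UMIs of mirr, a homeobox gene known to favour the Tk class. In all, CCHa2 reached 209 to 937 UMIs in 7 cells, AstA 90 to 386 in 3 cells, and the hormones Mip and Dh31 passed 50 UMIs in 2 cells each. NPF never exceeded 7 UMIs in an AstC+EE cell.

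The Orcokinin cells and the other hormone-rich cells differed in many genes besides their peptides. The others are a mixed remainder, and their 4 cells of day 3 include the cell with high Tk and Dh31. Counting genes at least 2-fold apart the same way in both libraries, 328 of 2880 genes tested (11.4%) were higher and 374 (13%) were lower in Orcokinin cells, with group sizes of 6 against 7 and 13 against 4 cells. Of 11 ion channel genes 6 were higher and 1 lower, and of 13 enteroendocrine fate genes 3 were higher and 4 lower. Genes near 0 in either group entered only through the other, and the division was made on Orcokinin UMIs of the same cells. The counts of this contrast thus describe the groups and support nothing. The T-type calcium channel gene Ca-alpha1T had levels of 7.39 and 9.76 in Orcokinin cells against 0.0955 and 0 in the others. The chemoreceptor gene Ir85a had 17.2 and 23.2 against 0.106 and 0, and the bHLH transcription factor gene tap had 15.1 and 15.2 against 0 in both libraries.

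The growth factor gene Pvf3 (4.25 and 3.92) and the homeobox gene tup (5.88 and 3.50) were also at 0 in the other hormone-rich cells of both libraries. Esyt2, a membrane-tethering protein of the endoplasmic reticulum, had 9.65 and 4.67 against 0.0998 and 0. CG4587, for which the files give no function, had 22.5 and 32.7 against 0. The Snail-family gene esg, known from progenitors and also from enteroendocrine cells, was at 7.31 and 7.86 in Orcokinin cells against 1.03 and 0. These genes were higher in the Orcokinin cells than in the other hormone-rich cells in both libraries. However, esg was as high in Tk+EE cells, at 7.64 and 7.28 and in 22 of 23 and 29 of 30 cells, and tap was at 3.84 and 3.43 there.

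In the opposite direction, the other hormone-rich cells had high levels of CG9568 (161.6 and 205.2 against 0.539 and 0.171 in Orcokinin cells). Pebp1, a phosphatidylethanolamine-binding protein, was at 62.8 and 82.9 against 0.967 and 0.799. Frost (Fst), a cold-response gene, was at 69.2 and 65.6 against 0.284 and 0.214. Snakeskin (Ssk), a septate junction protein of the midgut, had 20.9 and 24.9 and the metallothionein MtnB 10.4 and 9.89, and both were at 0 in all Orcokinin cells. The transcription factor genes sug (5.73 and 0.935), Fer1 (3.26 and 1.38) and Poxn (1.13 and 0.604) were likewise at 0 in Orcokinin cells. Of 14 heat shock genes 8 were lower in Orcokinin cells, Hsp68 being at 3.00 and 1.55 against 13.8 and 13.7.

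The genes that turn a prohormone into a secreted peptide followed the hormone split within the class. Between hormone-rich and hormone-poor cells, 539 of 2752 genes tested (19.6%) were at least 2-fold higher in the hormone-rich cells of both libraries and 285 (10.4%) were lower. Of 9 peptide processing genes 7 were higher and 0 lower, with a median log2 difference of 4.99 against 0.13 over all genes tested. Of 16 vesicle release genes 12 were higher and 0 lower (median 2.63). Genes near 0 in hormone-poor cells entered these counts only through the hormone-rich cells, where they are high, and the split was made on peptide transcripts of the same cells, so the counts describe what went with it and support nothing.

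**Figure D2:**
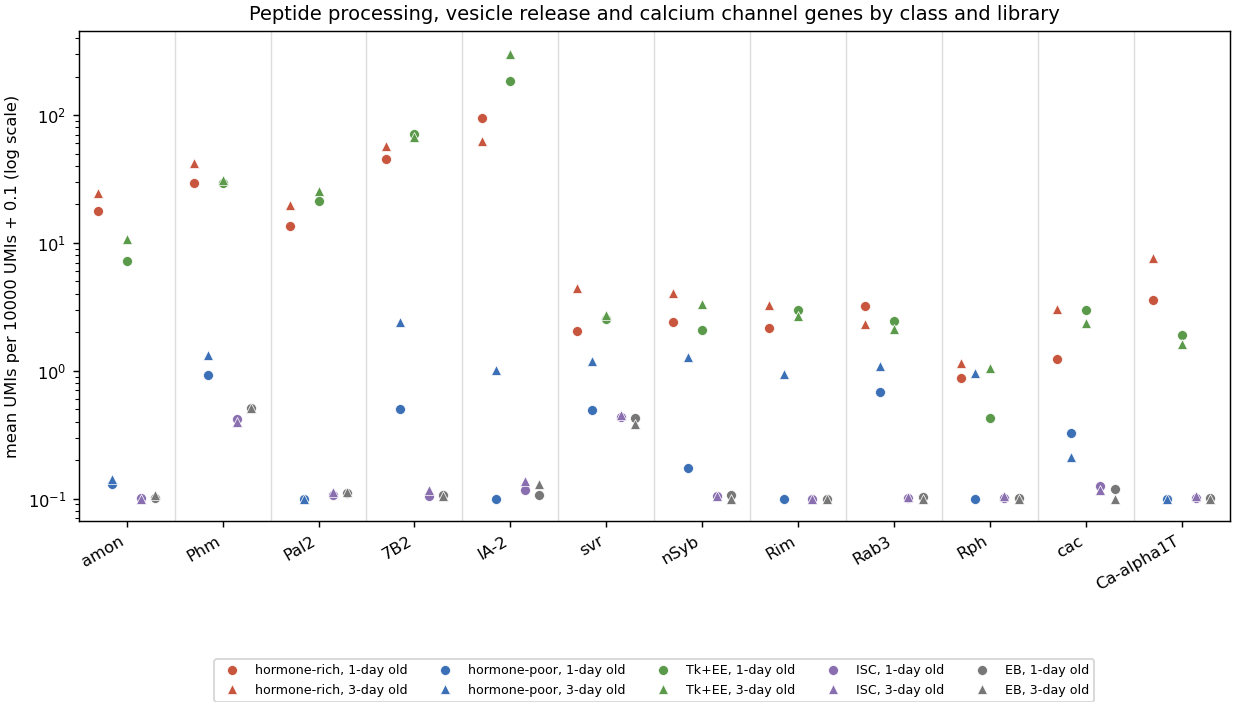
Levels of 12 peptide processing, vesicle release and calcium channel genes (mean UMIs per 10000 UMIs plus 0.1, log axis) in hormone-rich, hormone-poor, Tk+EE, stem (ISC) and enteroblast (EB) cells, with a circle for the 1-day and a triangle for the 3-day library. Hormone-rich points lie above hormone-poor points for each gene within a library, amon at 17.6 and 24.3 against 0.0307 and 0.0416.

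By step of the pathway, the prohormone convertase gene amon was at 17.6 and 24.3 in hormone-rich cells against 0.0307 and 0.0416 in hormone-poor cells. Its chaperone 7B2 was at 45.0 and 56.7 against 0.402 and 2.29. For the amidating enzymes, Phm was at 29.1 and 41.9 against 0.824 and 1.22, and Pal2 was at 13.5 and 19.6 against 0 in both libraries. IA-2, a dense-core vesicle protein, was at 93.9 and 62.8 against 0 and 0.918. Hormone-poor cells of day 1 therefore held each of these named genes at 0.824 or less, and those of day 3 held them at 0 to 2.29.

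Genes of the release machinery were also higher in hormone-rich cells. The vesicle SNARE gene nSyb was at 2.30 and 3.94 in hormone-rich cells against 0.0723 and 1.18 in hormone-poor cells, and the active-zone gene Rim at 2.05 and 3.18 against 0 and 0.837. The synaptotagmin gene Sytbeta was at 7.64 and 11.7 against 0 and 0.249. The priming factor gene unc-13-4A was at 18.7 and 25.6 against 0 in both libraries, and Ca-alpha1T was at 3.46 and 7.46 against 0 in both. Rab3, a small GTPase of secretory vesicles, was less far apart, at 3.10 and 2.21 against 0.587 and 0.993. Within the hormone-rich cells, IA-2 was lower in Orcokinin cells (42.6 and 56.8 against 137.9 and 82.3), while amon was higher (24.0 and 29.6 against 12.2 and 6.97).

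The hormone-poor cells held Delta (Dl), the Notch ligand known from stem cells, together with pros. Dl was at 5.42 and 7.79 in hormone-poor cells, found in 15 of 19 and 11 of 12 of them, against 0.326 and 0.354 in hormone-rich cells, found in 2 of 13 and 1 of 17. Stem cells had 2.85 and 1.93, enteroblasts 0.101 and 0.112, and Tk+EE cells 0 and 0.0136. With 4000 UMIs per cell, Dl was detected in 78.9% (54.4 to 93.9) and 75.0% (42.8 to 94.5) of hormone-poor cells and in 48.2% and 36.0% of stem cells. The thinned share was 9.09% and 7.14% in hormone-rich cells, and 0 of 22 and 0 of 30 in Tk+EE cells, which allows up to 13.6% and 10.0%. Enterocytes gave 1 of 28 (3.57%) and 0 of 27.

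pros itself was at 7.37 and 15.6 in hormone-poor cells, where all 19 and all 12 had it, and at 9.48 and 15.8 in hormone-rich cells. Tk+EE cells had 9.71 and 11.8, and stem cells 0.0571 and 0.0185. The receptor gene Notch (N) was at 4.65 and 3.40 in hormone-poor cells, against 4.75 and 5.62 in stem cells and the 0.477 and 0.236 of hormone-rich cells. The hormone-poor cells thus had pros at levels near those of the other enteroendocrine cells and Dl above its stem cell level in both libraries. Their N was near its stem cell level at day 1 and below it at day 3.

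**Figure D3:**
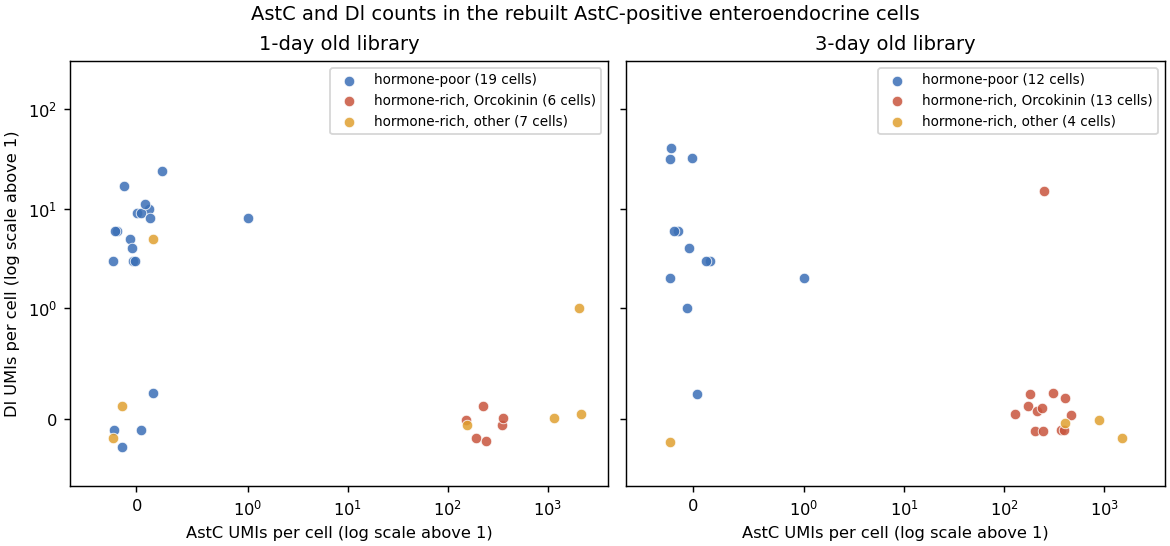
AstC UMIs (horizontal) against Dl UMIs (vertical) in each of the 61 rebuilt AstC+EE cells, 1 panel per library, on axes that are logarithmic above 1, with cells at 0 spread slightly so that they can be seen apart. Most cells lie along one axis or the other, and 4 hold both transcripts.

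AstC and Dl transcripts were rarely in the same cell. At own depth 4 of 61 cells had both, 2 in each library. In 2 of these, both hormone-poor, AstC was a single UMI. The others were hormone-rich cells, with 2031 AstC and 1 Dl UMIs in one and 249 AstC and 15 Dl UMIs in the other, which at 24931 UMIs was the deepest of the 61. Requiring 2 UMIs of each at 4000 UMIs per cell left 0 cells in both libraries.

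Notch target genes, among them repressors of the Enhancer of split complex, were higher in the hormone-poor cells. Of 7 such genes tested between hormone-rich and hormone-poor cells, 6 were lower in hormone-rich cells and 0 higher, with a median log2 difference of -3.60. Genes near 0 in hormone-rich cells entered this count only through the hormone-poor cells. E(spl)m7-HLH, a bHLH repressor, was at 14.3 and 18.2 in hormone-poor cells, in 17 of 19 and 11 of 12 of them, against 0 and 0.295 in hormone-rich cells. E(spl)m8-HLH was at 9.89 and 13.1 against 0.0735 and 0.136. E(spl)m6-BFM, a Bearded-family gene of the same complex, was at 8.95 and 17.6 against 0 in both libraries.

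These 3 genes were low in every class set beside them. E(spl)m7-HLH was at 0.319 and 0.480 in stem cells, 0.0387 and 0.117 in enteroblasts, and 0 and 0.0409 in Tk+EE cells. E(spl)m8-HLH was at 0.142 and 0.0613 in stem cells, and E(spl)m6-BFM at 0.0218 and 0.0312. E(spl)mbeta-HLH, a marker of enteroblasts, did not separate the groups in this way: it was at 6.30 and 13.2 in hormone-poor cells, 8.53 and 10.8 in stem cells and 12.5 and 14.8 in enteroblasts, so its order between hormone-poor and stem cells was opposite in the 2 libraries. E(spl)m3-HLH was higher in stem cells (2.94 and 3.88) than in hormone-poor cells (0.845 and 0.574). The genes of the complex thus differed in their order, with m6, m7 and m8 higher in hormone-poor cells, m3 higher in stem cells, and mbeta present in both.

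**Figure D4:**
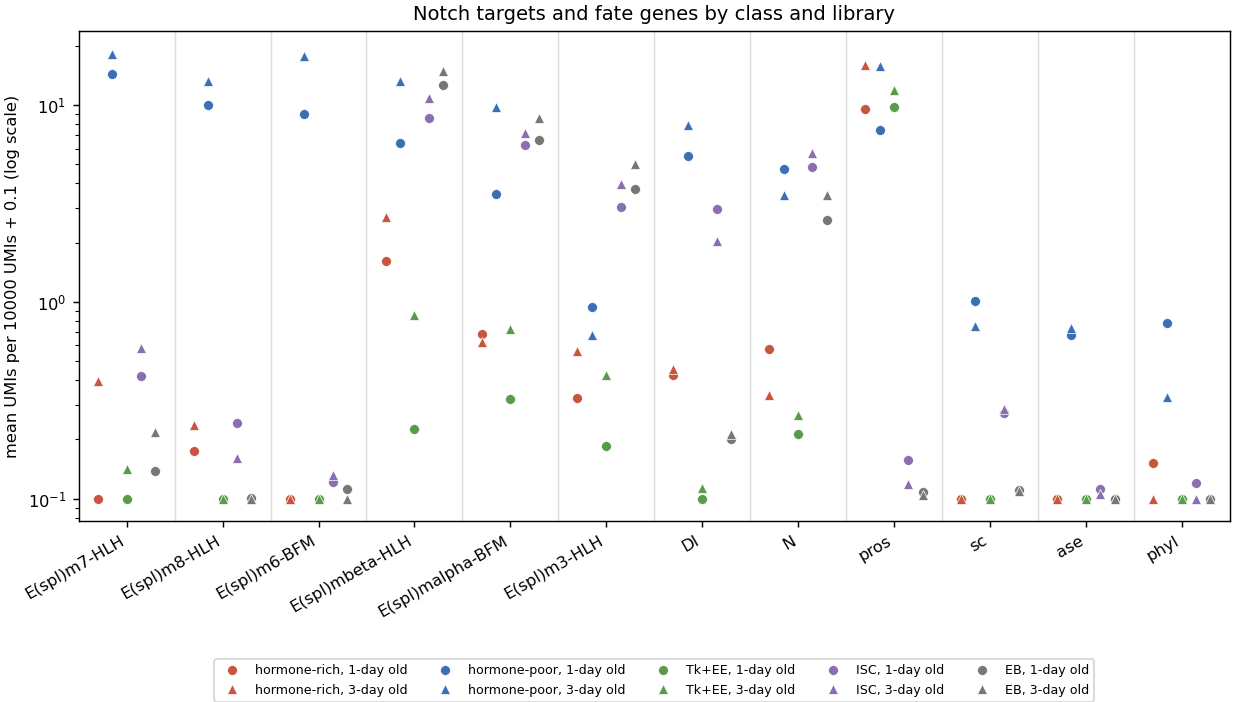
Levels of Dl, N and Notch target genes (mean UMIs per 10000 UMIs plus 0.1, log axis) in hormone-rich, hormone-poor, Tk+EE, stem (ISC) and enteroblast (EB) cells, with a circle for the 1-day and a triangle for the 3-day library. E(spl)m6-BFM, E(spl)m7-HLH and E(spl)m8-HLH are at 8.95 to 18.2 in hormone-poor cells and at most 0.480 in the other groups.

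Fate genes known from the birth of enteroendocrine cells were also found in the hormone-poor cells. The proneural gene scute (sc), which promotes enteroendocrine fate, was at 0.911 and 0.649, in 9 of 19 and 4 of 12 cells, and was at 0 in all hormone-rich and all Tk+EE cells. Its relative asense (ase) was at 0.575 and 0.635 and was likewise at 0 in both. The adaptor gene phyl, needed for enteroendocrine fate, was at 0.680 and 0.229 and occurred in 1 hormone-rich cell. In stem cells sc was at 0.172 and 0.186. Among the enteroendocrine cells, sc and ase were thus seen in hormone-poor cells alone, and in fewer than all of them.

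Inscuteable (insc), an adaptor of asymmetric division, was at 1.89 and 2.61 in hormone-poor cells, 1.25 and 1.50 in stem cells, and 0.167 and 0.406 in hormone-rich cells. The insulin receptor gene InR was at 2.95 and 4.31 against 0.407 and 0.816 in hormone-rich cells. insb, a nuclear antagonist of Notch in sensory precursors, was at 2.40 and 1.59 in hormone-poor cells against 0.0067 and 0 in stem cells. Of the genes with the largest difference, the adhesion gene rst was at 4.37 and 4.05 and the forkhead gene jumu at 1.30 and 2.13 in hormone-poor cells, both against 0 in hormone-rich cells. Hnf4, a nuclear receptor, was at 2.14 and 2.97 against 0.171 and 0.141.

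Against stem cells, 315 of 2223 genes (14.2%) were higher and 124 (5.58%) lower in hormone-poor cells of both libraries. Of 13 enteroendocrine fate genes 8 were higher and 1 lower, with a median log2 difference of 2.35 against 0.35 over all genes. Of 7 Notch target genes 4 were higher and 1 lower, and of 11 progenitor genes 0 were higher and 2 lower, with a median of -0.37. Of 5 peptide processing genes 3 were higher and 0 lower (median 1.44), and of 6 vesicle release genes 3 were higher and 0 lower (median 1.79). Genes near 0 in stem cells, such as pros and E(spl)m6-BFM, entered these counts only through hormone-poor cells. Of 7 cell cycle genes 0 passed in either direction. The cyclin gene CycB was at 0.837 and 0.322 in hormone-poor cells and 0.179 and 0.164 in stem cells, and at 0 in hormone-rich and Tk+EE cells. Tsp2A, a tetraspanin of septate junctions, was at 3.17 and 4.64 in hormone-poor cells against 0.134 and 0.144 in stem cells.

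For the whole class against Tk+EE cells, 275 of 2486 genes tested (11.1%) were higher and 137 (5.51%) were lower in AstC+EE cells. Both classes are named for their hormones, so the hormone levels describe the labels. AstC was at 207.7 and 286.1 against 2.81 and 2.30, Orcokinin at 37.5 and 79.5 against 0.939 and 0.652, and CCHa1 at 18.0 and 13.3 against 0.259 and 0.0687. NPF was at 0.150 and 0.607 against 1972.2 and 1484.2. Tk was at 0 and 9.09 against 155.0 and 169.6, where at day 3 only the cell with 173 UMIs reached 50.

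Beyond the hormones, CG14989 was at 85.4 and 169.4 in AstC+EE cells against 0.0609 and 0 in Tk+EE cells, and CG12934 was at 0.0792 and 0.149 against 504.9 and 715.1. The files give neither a function. The homeobox gene mirr was at 5.54 and 5.43 in Tk+EE cells, in 20 of 23 and 29 of 30, against 0 and 0.590 in hormone-rich and 1.40 and 1.13 in hormone-poor cells. TrpA1, a cation channel that senses heat and irritants, was found in all 23 and all 30 Tk+EE cells at 4.69 and 5.80, against 0.119 and 0.518 in hormone-rich cells. The calcium-binding protein gene Scp2 was at 0 and 0.807 in AstC+EE cells against 15.5 and 13.4.

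Of 10 peptide processing genes 1 was higher and 3 lower in AstC+EE cells (median log2 -0.63, against 0.32 over all genes), and of 15 vesicle release genes 0 were higher and 1 lower. Of 9 ion channel genes 0 were higher and 4 lower, while of 7 Notch target genes 6 were higher and 0 lower. These counts mix the hormone-rich and hormone-poor cells. Notch targets at 0 in Tk+EE cells, such as E(spl)m6-BFM and E(spl)m8-HLH, entered only through AstC+EE cells, so their count supports nothing. In hormone-rich cells alone, 294 of 2526 genes (11.6%) were higher and 98 (3.88%) lower than in Tk+EE cells, with 2 of 10 processing genes higher and 0 lower. Of the ion channel genes then 1 of 9 was higher and 3 lower, and the median of the processing genes was 0.20 against 0.31 over all genes. Only 2 Notch target genes were tested in that comparison, with 1 higher and 0 lower.

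Against stem cells, 546 of 2433 genes (22.4%) were higher and 116 (4.77%) lower in the whole class. All 8 peptide processing genes tested were higher (median log2 5.82 against 0.42 over all genes), as were 12 of 14 vesicle release genes, with 0 lower in either list. Genes near 0 in stem cells, such as 7B2 (0.00419 and 0.0168), entered these counts only through AstC+EE cells, where they are high. The counts thus describe the classes and support nothing. Of 12 enteroendocrine fate genes 7 were higher and 0 lower, and of 11 progenitor genes 0 were higher and 4 lower (median -0.66). The cholesterol-binding protein gene Npc2a was at 0.430 and 0.260 against 4.18 and 3.41 in stem cells. LanA, a laminin of the basement membrane, was at 0.0799 and 0.0308 against 1.20 and 1.22, and the ETS factor gene Ets21C was at 0.285 and 0.0553 against 1.62 and 1.39.

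Against enteroblasts, 628 of 2466 genes (25.5%) were higher and 201 (8.15%) lower. Of 8 processing genes 7 were higher, of 14 vesicle release genes 11, and of 11 progenitor genes 1 was higher and 3 lower. Here too, genes near 0 in enteroblasts, such as 7B2 (0.00676 and 0.00504), entered only through AstC+EE cells, so these counts support nothing. The translation repressor gene Thor, a target of low insulin signalling, was at 2.77 and 2.22 in AstC+EE cells against 27.6 and 21.2 in enteroblasts. AstC+EE cells were less deep than both progenitor classes, and the part of depth in these counts was not tested.

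Other values per cell also differed between the hormone-rich and hormone-poor cells. The deposited percentage of counts in genes whose column is named for ribosomal genes had medians of 24.7% and 26.7% in hormone-rich, 52.3% and 47.2% in hormone-poor, 24.0% and 22.6% in Tk+EE and 56.8% in stem cells of both libraries. The unspliced share had medians of 5.02% and 4.51% in hormone-rich cells, 7.48% and 8.96% in hormone-poor cells, 5.73% and 6.79% in Tk+EE cells and 7.07% and 8.50% in stem cells. Median mitochondrial percentages were 3.29% and 3.59% against 2.07% and 2.37%. In the ribosomal and unspliced percentages of both libraries the medians of hormone-poor cells were nearer to those of stem cells than to those of Tk+EE cells.

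**Figure D5:**
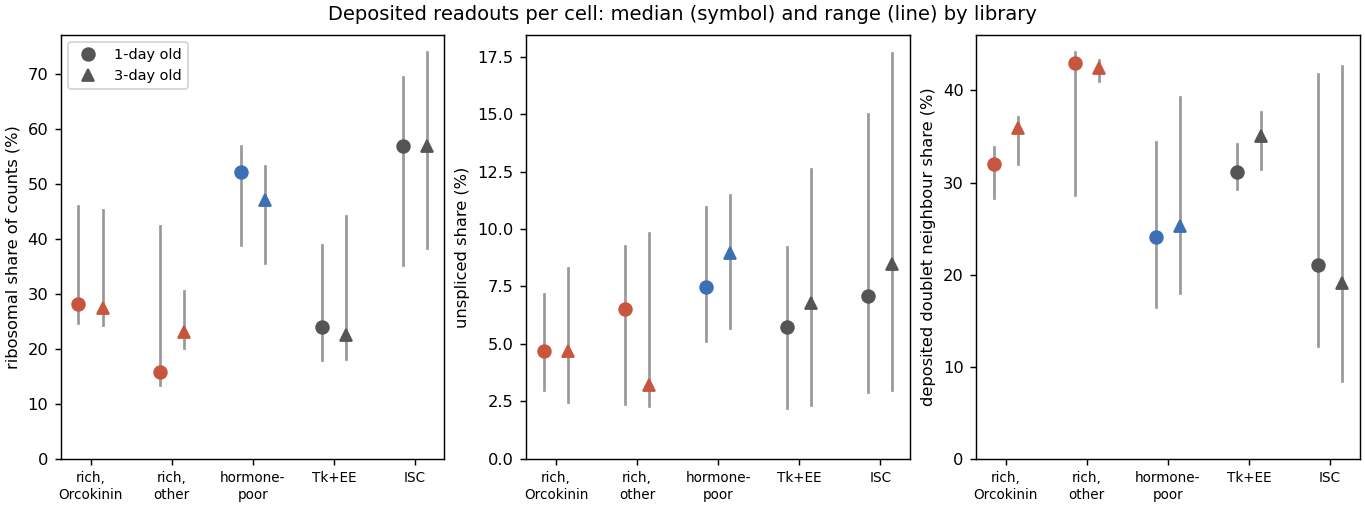
Ribosomal share of counts, unspliced share and doublet neighbour share, all in percent, in the Orcokinin and other hormone-rich cells, hormone-poor cells, Tk+EE cells and stem cells (ISC) of each library; symbols are medians and lines run from the lowest to the highest cell. The median ribosomal share is 52.3 and 47.2 in hormone-poor cells and 28.1 and 27.4 in Orcokinin cells, whose lines reach 46.1 and 45.2.

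In 3 hormone-rich cells the ribosomal percentage was 46.1, 45.2 and 42.3, and in all others it was at most 31.2. The first, at 19474 UMIs, held 353 AstC, 8 N and 14 esg UMIs. The second was the deepest cell, with 249 AstC, 15 Dl, 10 N, 21 esg and 63 E(spl)mbeta-HLH UMIs. The third, at 14312 UMIs, held 823 CCHa2, 5 Dl and 3 N UMIs. These 3 cells combined high hormone counts with N transcripts and were 3 of the 4 deepest hormone-rich cells. The first and second were Orcokinin cells, all of which held esg, so esg does not set them apart. The deposited calls make all 3 singlets, their deposited doublet neighbour shares were 0.284, 0.320 and 0.287 as fractions, and whether a droplet held more than 1 cell was not tested. The median of that share was 33.5% and 36.5% in hormone-rich, 24.1% and 25.3% in hormone-poor and 31.1% and 35.1% in Tk+EE cells.

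Marker lists of other cell types were summed per cell. Of 26 enterocyte genes, 4 and 9 were at 0 in all AstC+EE cells, and their sum had medians of 16.5 (1.33 to 51.0) and 7.30 (1.42 to 50.1) per 10000, against 194.3 and 355.7 in enterocytes. Hormone-rich cells had 25.6 and 7.94, hormone-poor cells 12.2 and 4.38, and stem cells 8.15 and 3.83. Of 14 muscle genes 11 and 8 were at 0, with medians of 0 and 0.738, and of 10 fat body and hemocyte genes 7 and 10 were at 0, with highest sums of 1.20 and 0. The neuron list, which includes genes that enteroendocrine cells use, had medians of 3.19 and 6.86, against 0 in stem cells.

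Between the ages, 198 of 2562 genes (7.73%) were at least 2-fold higher at day 3 in AstC+EE cells, with and without the highest cell of each library, and 89 (3.47%) were lower. Of 14 vesicle release genes 7 were higher at day 3 and 0 lower, and of 7 ion channel genes 5 were higher and 0 lower. Of 11 enterocyte genes 0 were higher and 6 lower, and of 6 cell cycle genes 3 were lower. The digestive serine protease gene Jon25Biii was at 3.39 and 0.504, in 26 and 7 cells, and its list was also lower at day 3 in stem cells by the sums above.

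The day 3 library had a larger share of hormone-rich cells. Within hormone-rich cells 294 of 2766 genes (10.6%) were higher and 312 (11.3%) lower at day 3. Of 17 vesicle release genes 1 was higher and 1 lower there, while of 8 ion channel genes 4 were higher and 0 lower. Gad1, the enzyme that makes the transmitter GABA, was at 0.230 and 3.15 over the class, in 5 and 11 cells, and the octopamine receptor gene Octalpha2R at 0.591 and 3.31, in 5 and 12 cells. CCHa2 was at 155.2 and 7.73, in 6 and 2 cells, and within the other hormone-rich cells, without any Orcokinin cell, it was at 709.3 and 56.1. CCHa1 in those cells was at 81.6 and 76.4. These levels leave out the AstC+EE cells above the median depth. In depth-corrected counts, CCHa2 was at 486, 0 and 100 in the deep cells of day 3 and at 0 in all those of day 1. Orcokinin cells were 6 of 13 hormone-rich cells at day 1 and 13 of 17 at day 3. Dh31 was at 0 and 6.44, in 4 cells of day 3. The mitotic kinase gene aurB was at 0.821 and 0.0796, in 13 and 3 cells.

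Within hormone-poor cells, 319 of 2365 genes (13.5%) were higher and 134 (5.67%) lower at day 3. Of 6 peptide processing genes 4 were higher and 0 lower, of 10 vesicle release genes 5 were higher and 0 lower, and of 10 enterocyte genes 0 were higher and 7 lower. CCHa1 was at 0.165 and 6.61, in 1 of 19 and 7 of 12 cells. The synaptic adhesion gene Nrx-1 was at 0.0802 and 1.04 and the cytoskeletal adaptor gene Ank2 at 0.158 and 1.53. PCNA, the DNA replication clamp, was at 0.988 and 0.103, in 8 and 2 cells, and the cytokine gene upd2 was at 1.04 and 0.127.

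The CCHa1 of the 12 hormone-poor cells of day 3 lay mostly in 5 cells with 6 to 44 UMIs, a division made after the values were seen. All 5 had 7B2 (1 to 20 UMIs) and nSyb (1 to 10 UMIs), with 0 to 6 Dl, 0 to 2 N and 12 to 58 pros UMIs. The 5 cells without CCHa1 had 7B2 in 1 cell, with 1 UMI, no nSyb, 3 to 32 Dl, 1 to 13 N and 8 to 23 pros UMIs. The last 2 cells had 1 CCHa1 UMI each, with 2 and 40 Dl UMIs. E(spl)m7-HLH was present in all 5 cells of the first set, at 1 to 44 UMIs, so in these cells 7B2 and nSyb occurred together with this Notch target. IA-2 was in 2 of these 5 cells, with 18 of its 19 UMIs in a single cell. Rim was in 2 of these 5 (3 UMIs) and in 2 of the 5 without CCHa1 (4 UMIs). Doublet neighbour shares were 0.264, 0.360, 0.320, 0.388 and 0.326 in the first set. They were 0.393, 0.197, 0.197, 0.191 and 0.197 in the cells without CCHa1, and whether a droplet held more than 1 cell was not tested.

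The 7 AstC+EE cells above the median depth were read from the deposited depth-corrected counts. Of these, 4 held AstC at 129 to 3121, the highest being a day 3 cell with 353 CCHa1 and 486 CCHa2. Another day 3 cell, at 42450 UMIs, held 193 AstC and 131 Orcokinin with 5 Dl, 7 N and 24 esg. Of the 3 without high AstC, all from day 1, one held 91 CCHa1 and 110 Tk, one held 25 pros, 10 Dl and 4 CCHa1, and one held 42 CCHa1, 19 Dl and 20 N at 54481 UMIs. Both kinds of cell were thus also found among the deepest members.

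All 68 cells lay in cluster 7 of the deposited table and carried the transferred label AstC+EE with a score of at least 0.7791, while no cell outside the class scored above 0.4366. Cluster 7 also held 2 cells annotated ISC1, at 31333 and 46716 UMIs, with scores of 0.2026 and 0.2831. They held 2 and 1 pros, 21 and 16 N and 13 and 7 esg in depth-corrected counts. Of the peptides, AstC, Orcokinin, CCHa1, CCHa2 and Tk were read, and all were at 0 in both cells. Their pros counts were below those of 6 of the 7 deep AstC+EE cells.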

How the data were processed

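A pair of libraries (1 per age) of midgut cells were used, with classes, singlet calls and cluster numbers from the authors' deposited annotation. Per the submitters' processing notes, Cell Ranger 6.0.1 and build BDGP6 were used, and the cell filters are not given in the sources used here. The deposited matrix holds the natural log of 1 plus whole depth-corrected counts, per the file headers and values, for 9607 genes. The deposited cell table holds UMI counts per cell, percent of mitochondrial and ribosomal counts, the fraction of doublet neighbours and transferred label scores, and a score for the depth-corrected total.

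UMI counts were rebuilt by inverting the depth correction, fitted per gene in the 1000 shallowest cells. In AstC+EE cells the rebuilt counts summed to 0.977 to 1.01 of the deposited totals, with a median of 2 detected genes fewer. They departed from the fitted rule in 0.134% of gene and cell pairs. Deeper cells were set aside because the inversion is not unique there, and 391 genes had no value in the fit. A gene was counted as higher or lower when its levels differed at least 2-fold the same way in both libraries after adding 0.1 per 10000, among genes of at least 0.5 per 10000 in a group; between ages, this had to hold also when each library's highest cell was dropped. The added 0.1 understates differences of low genes. A gene near 0 in a group entered a comparison only through the other group, so such counts describe the groups and support nothing. Shares used cells thinned to 4000 UMIs, leaving out shallower cells. No doublet caller was run, since all deposited cells carry singlet calls. Named genes were the 12 with the largest smaller-of-both-libraries ratio in each direction (mean of at least 1 per 10000) and the 10 for ages, plus genes of 21 lists, of whose 378 entries 313 are in the matrix. The members and lists were chosen with earlier results of these data known, and the division at 50 UMIs after the values were seen. The alternatives tried are given under the closing section. Other columns of per-sample values left unused numbered 0. The scripts were tested on simulated data and ran under Python 3.11.15, numpy 2.4.6, pandas 2.3.3 and scipy 1.17.1.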

Additional observations from a re-analysis of the deposited data

Results flagged for a closer look

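In 3 genes that passed the 2-fold rule between the ages in both kinds of AstC+EE cell, the log2 difference of day 3 over day 1 had opposite signs in hormone-rich and hormone-poor cells. For CCHa1 it was -1.28 in hormone-rich cells (levels of 43.9 and 18.0 per 10000 UMIs) and 4.66 in hormone-poor cells (0.165 and 6.61). For the bHLH gene Fer1 it was -2.13 (1.76 and 0.324) and 1.39 (0.372 and 1.14). For sobremesa (sbm), an amino acid transporter gene, it was -1.39 (1.51 and 0.516) and 1.14 (0.237 and 0.641). With 1 library per age, the difference between the signs was not tested. CCHa1 is also among the peptides whose UMIs made the split, so the cut itself caps its level in hormone-poor cells. The hormone-poor cells of day 3 nearest to the cut held 44, 32 and 29 CCHa1 UMIs. The opposite signs of CCHa1 therefore cannot be read apart from the way the cells were divided. CCHa1 and Fer1 were at 0 in the Orcokinin cells, which were 6 of 13 hormone-rich cells at day 1 and 13 of 17 at day 3. In the other hormone-rich cells CCHa1 was at 81.6 and 76.4, and Fer1 was at 3.26 and 1.38. The part of the Orcokinin cell share in the age differences was not tested.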

How the results depend on the processing

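Values are given as higher and lower counts. With a pseudocount of 1 per 10000, 73 and 40 genes passed against Tk+EE cells, 158 and 26 against stem cells, 166 and 59 against enteroblasts, and 23 and 6 between the ages. With deposited depth-corrected counts in all cells, 134 were higher against Tk+EE cells, 19 lower against stem cells, 57 lower against enteroblasts, and 75 and 23 passed between the ages. With a filter of 0.1 per 10000, 467 were higher against Tk+EE cells, 832 and 180 passed against stem cells, and 377 and 262 between the ages. With a filter of 2, the counts were 90 and 52, 154 and 33, 181 and 84, and 47 and 14. Between the ages, 312 were lower in hormone-rich cells alone, and 319 and 134 passed in hormone-poor cells alone, as alternatives chosen after seeing the data. The day 1 share of AstC+EE cells with Dl was 28.1% at 2000 UMIs against 53.3% at 4000, and the share with AstC and Dl was 0% in both libraries at 2 UMIs against 6.67% and 3.85%. The values above are from the main counts and shares, of which 32 moved and 50 stayed within their limits. Of the other 464 named values that stayed within their limits and 160 that moved, 0 reversed. The cause of these shifts was not tested, beyond fewer genes being tested under a stricter filter. No paired analysis was possible because each age has 1 library. Depth limits the shares, since thinning detects fewer transcripts and cells deeper than the median gave no rebuilt counts.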
